A study of Mus musculus with 3 samples.

Results

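The genes described here are 40 interferon-stimulated genes outside the Ifit family, of 55450 gene rows in the tables. They were chosen by symbol, as genes whose transcription type I interferon is known to raise, and each symbol was found once among the transcript records and joined by its identifier to the gene table. RNA came from the cytosolic fraction of primary macrophages grown from the bone marrow of C57BL/6J mice and exposed for 20 min to 100 ng/ml Lipid A, the Tlr4-binding portion of the lipopolysaccharide of bacteria. Total RNA was depleted of ribosomal RNA and sequenced in 3 libraries of this 1 condition, which the labels number as biological replicates 1 to 3 and assign to the same donor identifier. Sex and age are not given in the labels. Unstimulated cells, other times and cells without an interferon receptor are not analysed here, so the values below are levels at 20 min and say of no gene that it was induced, nor how much of a level depends on interferon.

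Type I interferon binds the receptor pair Ifnar1 and Ifnar2, whose kinases Jak1 and Tyk2 switch on a transcription factor complex with Irf9 that binds the interferon-stimulated response element (ISRE) near the start of its target genes. A different element, the gamma-activated site (GAS), serves the response to interferon gamma. Macrophages are known to keep such genes on at a basal level through small amounts of interferon that they release without infection, a state called tonic signalling, and Lipid A leads to a later wave of interferon beta through Ticam1 and Irf3.

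Start windows of the members were read for both elements, because these are the sequences through which the pathway is known to act. The RefSeq promoter table of build GRCm38.p6, which gives 250 bases before and 50 bases from each gene start, held 35 windows for 30 of the 40 members. The ISRE core was searched as GAAANNGAAA and the GAS core as TTCNNNGAA, each on both strands, where N is any base. An ISRE core was present for 15 of the 30 members (50%), while 3.44% of all 32851 windows and 3.99% of all genes in the table held one. More than 1 core stood in the windows of 5 members, Isg15, Bst2, Ifitm3, Oas1a and Oas1g, against 0.225% of all windows. These 5 windows are printed because they hold the most cores; each runs 5′ to 3′ on the strand of its gene, which is the minus strand for all 5, and capitals mark bases inside an ISRE core. The windows lie at chr4:156200769-156201068 for Isg15, chr8:71537423-71537722 for Bst2, chr7:141010695-141010994 for Ifitm3, chr5:120907476-120907775 for Oas1a and chr5:120887564-120887863 for Oas1g.
Isg15: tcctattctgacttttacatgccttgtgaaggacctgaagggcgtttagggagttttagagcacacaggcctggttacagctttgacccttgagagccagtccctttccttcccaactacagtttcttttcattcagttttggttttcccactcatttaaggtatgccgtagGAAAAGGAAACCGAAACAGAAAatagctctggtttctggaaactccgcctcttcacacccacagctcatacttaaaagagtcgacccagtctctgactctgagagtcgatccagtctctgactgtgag
Bst2: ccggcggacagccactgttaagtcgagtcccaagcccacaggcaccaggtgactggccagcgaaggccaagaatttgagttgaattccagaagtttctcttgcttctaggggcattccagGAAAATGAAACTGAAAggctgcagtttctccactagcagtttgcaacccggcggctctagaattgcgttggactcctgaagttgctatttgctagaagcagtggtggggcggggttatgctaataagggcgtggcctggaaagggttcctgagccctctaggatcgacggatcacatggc
Ifitm3: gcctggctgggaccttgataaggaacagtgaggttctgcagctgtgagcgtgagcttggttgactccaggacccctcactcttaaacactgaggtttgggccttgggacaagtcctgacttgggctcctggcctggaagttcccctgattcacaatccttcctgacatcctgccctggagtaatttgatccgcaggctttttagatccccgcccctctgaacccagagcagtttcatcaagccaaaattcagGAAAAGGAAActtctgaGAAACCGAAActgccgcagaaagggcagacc
Oas1a: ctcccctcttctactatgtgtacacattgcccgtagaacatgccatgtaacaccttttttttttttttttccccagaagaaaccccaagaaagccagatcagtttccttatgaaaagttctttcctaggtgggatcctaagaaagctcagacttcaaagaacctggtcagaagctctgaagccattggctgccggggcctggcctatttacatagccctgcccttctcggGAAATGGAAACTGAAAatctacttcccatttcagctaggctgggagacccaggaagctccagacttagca
Oas1g: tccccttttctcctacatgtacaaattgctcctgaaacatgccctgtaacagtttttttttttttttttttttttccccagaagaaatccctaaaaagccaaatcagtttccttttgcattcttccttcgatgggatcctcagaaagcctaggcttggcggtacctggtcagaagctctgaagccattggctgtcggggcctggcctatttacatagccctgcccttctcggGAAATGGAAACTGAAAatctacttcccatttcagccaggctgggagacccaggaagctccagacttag
The cores of Isg15, Bst2, Oas1a and Oas1g overlap each other, so that the GAAA repeats follow at a spacing of 6 bases, while the 2 cores of Ifitm3 lie apart and downstream of the start. Oas1a and Oas1g, neighbours whose starts are 19908 bases apart, carry the same capitals at nearly the same place, with first matches 20 and 18 bases before the start. A single core stood in the windows of Oas3, Ifitm2, Rsad2, Ddx58, Ifih1, Eif2ak2, Phf11b and Slfn5, and in each of 2 alternative windows of Trim30a and of Slfn8. The 2 windows of Slfn8 overlap, and their matches are the same bases, counted from 2 starts. GAS cores were found for 7 of the 30 members (23.3%), which were Adar, Bst2, Eif2ak2, Ifi35, Ifitm3, Oas1a and Samhd1, against 8.3% of all windows and 9.55% of genes. The GAS cores of Bst2 and Ifitm3 share bases with an ISRE core. A match describes letters only, and a window without one says nothing about binding of the factor.

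The libraries differed in depth and composition. Expected counts summed to 27392626 in replicate 1, 81597761 in replicate 2 and 37176950 in replicate 3, and 3 counts, the limit that a count of 0 allows, correspond to 0.110, 0.0368 and 0.0808 counts per 1000000 (CPM) in that order. Nuclear-encoded protein-coding genes took 25.0%, 22% and 19.6% of TPM in the same order. TPM is transcript abundance corrected for length, and its sum is fixed in each library, so the TPM of an mRNA falls where structural RNAs take more. Each level was therefore also rescaled to a fixed total of 1000000 over the nuclear-encoded protein-coding genes of its library, called rescaled TPM below. All 10 early Lipid A response genes were highest in replicate 1 by TPM (summed TPM 1262, 580.02 and 645). So were 80.3% of the 9725 genes averaging 1 TPM or more. In rescaled TPM all 10 were again highest there, against 30.4% of those genes. Their rescaled log2 difference of replicate 1 minus replicate 3 ranged between 0.04 for Zfp36 and 2.22 for Cxcl1. Replicate 3 stood apart in the nuclear RNAs Malat1 and Neat1, with Malat1 at 763 TPM there against 359 and 248 TPM in replicates 1 and 2. All 7 macrophage markers were above 1 TPM in every library, with a median of 139 TPM, while the 30 markers of conventional dendritic, T, NK, B, plasma, mast, basophil, neutrophil, fibroblast, endothelial and erythroid cells, and the 7 of plasmacytoid dendritic cells, were all below it.

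All 40 members were detected, meaning at least 1 TPM in each library, where 16.8% of all gene rows and 40.6% of protein-coding genes were. The members were chosen with earlier results of these data known, so this contrast may follow from the choice. Their mean levels had a median of 18.3 TPM, against 6.89 TPM over the 9341 detected genes, and ranged between 1.77 TPM for Mx2 and 274.6 TPM for Ifitm3. Of the members 36 lay above the median of detected genes, 28 reached 10 TPM, 10 reached 50 TPM and 4 reached 100 TPM (Ifitm3, Ifitm2, Slfn2 and Bst2). Each member rested on between 183 and 49531 counts in a library. Summed over the members, 0.810%, 0.729% and 0.593% of the rescaled total fell on them in replicates 1, 2 and 3 (0.711% ± 0.109, SD, n = 3), the highest share being in replicate 1 and the lowest in replicate 3. In bulk RNA such a share cannot tell fewer expressing cells from less RNA in each cell.

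**Figure D1:**
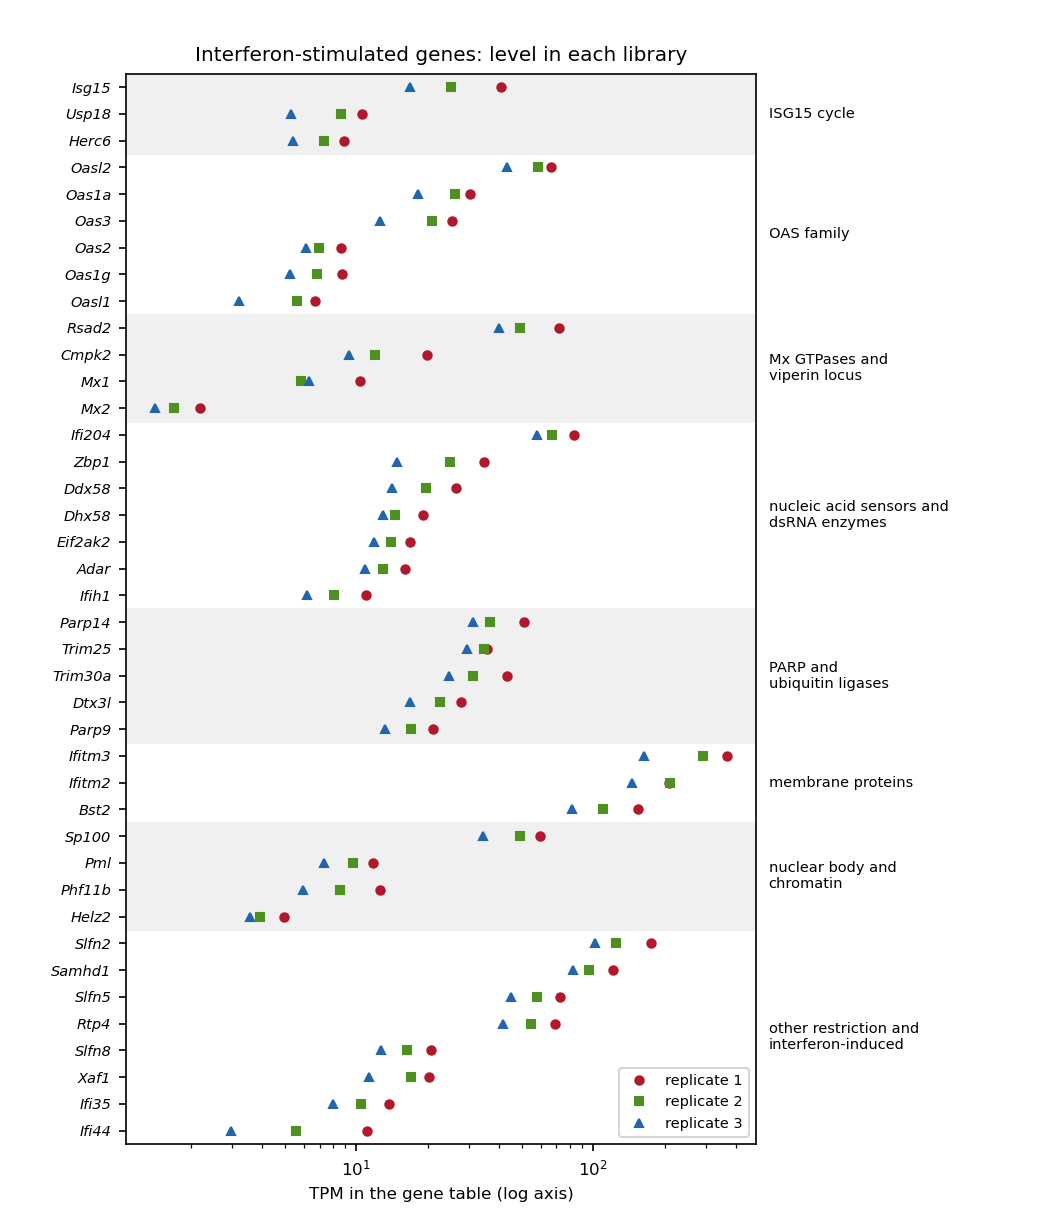
TPM of each of the 40 members in replicate 1 (circles), replicate 2 (squares) and replicate 3 (triangles) on a log axis, grouped by role and ordered by mean level within a role. The members span 1.77 to 274.6 TPM in the mean, and the circle lies furthest right for every gene but Ifitm2.

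The ISG15 cycle was led by its modifier. Isg15, a ubiquitin-like protein that is attached to other proteins, had 40.8 TPM in replicate 1, 25.1 TPM in replicate 2 and 16.8 TPM in replicate 3 (27.6 ± 12.2 TPM, SD, n = 3); 3 values in a row are given in this order below. Usp18, the protease that removes Isg15 and also restrains the receptor, was at 10.6, 8.66 and 5.28 TPM. Herc6, the ligase that attaches Isg15 in the mouse, was at 8.87, 7.33 and 5.41 TPM. All 3 genes were highest in replicate 1 and lowest in replicate 3, and the modifier was above both enzymes in every library. After rescaling, Isg15 was 1.91 times as high in replicate 1 as in replicate 3, Usp18 1.58 times and Herc6 1.29 times.

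The oligoadenylate synthetase (OAS) family covered a wide range of levels. The active synthetases of the family sense double-stranded RNA and make the messenger that activates RNase L. Oasl2 was at 66.5, 58.4 and 43.2 TPM, Oas1a at 30.2, 26.2 and 18.2 TPM, and Oas3 at 25.4, 20.98 and 12.6 TPM. These 3 genes were the highest of the family in every library. Oas2 was at 8.61, 6.94 and 6.16 TPM. Oas1g, a near relative of Oas1a, was at 8.72, 6.86 and 5.25 TPM, and the estimate splits reads between such relatives. Oasl1, known in the mouse to restrain translation of Irf7 mRNA, was the lowest at 6.69, 5.64 and 3.20 TPM. In rescaled TPM the family divided by how far replicate 3 lay below: Oasl1 was 1.64 times and Oas3 1.59 times as high in replicate 1 as in replicate 3, Oas1a and Oas1g 1.31 times each, Oasl2 1.21 times and Oas2 1.10 times. For Oas2 the counting intervals of replicates 1 and 3 overlapped on that scale.

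Viperin and its neighbour stood above the Mx genes. Rsad2 (viperin), which makes a chain-terminating nucleotide, was at 71.4, 49.1 and 39.9 TPM. Cmpk2, a nucleotide kinase encoded on the opposite strand with its start 12752 bases away on chromosome 12, was at 20.0, 12.01 and 9.36 TPM. Both had replicate 1 as the highest library by 1.28 times over replicate 2 for Rsad2 and 1.47 times for Cmpk2 in rescaled TPM, and both differed less between replicates 2 and 3, by 1.10 and 1.15 times. Mx1 encodes a dynamin-like GTPase that blocks influenza virus and carries a deletion of coding exons in C57BL/6 and many other inbred strains. It was at 10.4, 5.82 and 6.34 TPM, and after rescaling replicate 2 was its lowest library, as it was for Helz2 and no other member. Helz2, however, was nearly level between replicates 2 and 3, at 17.9 and 18.1 rescaled TPM, where Mx1 had 26.5 and 32.3. Mx2, annotated as a polymorphic pseudogene, was the lowest member at 2.20, 1.71 and 1.41 TPM, and its intervals in replicates 1 and 3 overlapped in rescaled TPM.

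The nucleic acid sensors and the enzymes of double-stranded RNA had the lowest median ratio of replicate 1 to replicate 3 of the 8 role groups, 1.16 in rescaled TPM. Ifi204, a DNA-binding protein of the interferon-inducible HIN family, was the highest at 82.7, 67.0 and 58.1 TPM (69.3 ± 12.5 TPM, SD, n = 3). Zbp1, a sensor of Z-form nucleic acid that can start necroptosis, was next at 34.6, 25.0 and 14.9 TPM. Zbp1 was the exception in its group, with a rescaled ratio of replicate 1 to replicate 3 of 1.83, where Ifi204 had 1.12. The receptors of cytosolic viral RNA were at 26.5, 19.6 and 14.1 TPM for Ddx58 (RIG-I), 19.1, 14.6 and 13.0 TPM for Dhx58 (LGP2) and 11.0, 8.04 and 6.17 TPM for Ifih1 (MDA5). The RNA-activated kinase Eif2ak2 (PKR) was at 16.9, 14.1 and 11.8 TPM, and the RNA editing enzyme Adar at 16.1, 13.0 and 10.9 TPM. Eif2ak2, Adar, Dhx58 and Ifi204 differed by at most 1.16 times between any 2 libraries in rescaled TPM, while Ddx58 and Ifih1 were 1.48 and 1.41 times as high in replicate 1 as in replicate 3.

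Among the ADP-ribosyl transferases and ubiquitin ligases, Parp14 was the highest at 51.1, 36.8 and 31.1 TPM. Trim30a, a ligase reported in the mouse to restrain Toll-like receptor signalling, was at 43.1, 31.1 and 24.6 TPM. Trim25, which ubiquitinates RIG-I, was at 35.6, 34.7 and 29.3 TPM and had the smallest spread of all members, with an SD of log2(TPM + 1) of 0.15. After rescaling, Trim25 had its lowest value, 143, in replicate 1, against 158 and 149 in replicates 2 and 3, and it was the only member lower in replicate 1 than in replicate 3. The ligase Dtx3l and its partner Parp9, which act as a complex, were at 27.7, 22.5 and 16.8 TPM and at 21, 17.0 and 13.2 TPM. Their starts lie 681 bases apart on opposite strands of chromosome 16, and the genes overlap over 682 bases, so without strand reads from that stretch could not be told apart. They had rescaled ratios of replicate 1 to replicate 3 of 1.25 for Parp9 and 1.29 for Dtx3l.

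The membrane proteins were the most abundant group, with a median of 188 TPM. Ifitm3, which blocks virus entry in endosomes, was at 368, 291 and 165 TPM (274.6 ± 103 TPM, SD, n = 3). Ifitm2, its close relative 54783 bases away on chromosome 7, was at 209, 210.45 and 145 TPM and was the only member highest in replicate 2 by TPM. The counting intervals of Ifitm2 in replicates 1 and 2 overlapped, at 203 to 215 and 207 to 214 TPM. The pair took 28.8% ± 2.35 (SD, n = 3) of the summed TPM of all 40 members. Between replicates 1 and 3 the relatives differed, with rescaled ratios of 1.76 for Ifitm3 and 1.13 for Ifitm2. Bst2 (tetherin), which holds budding virus at the cell surface, was at 155, 109.66 and 81.1 TPM, with a rescaled ratio of 1.499.

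Of the nuclear body and chromatin genes, Sp100 was at 59.9, 49.3 and 34.1 TPM and Pml, whose protein builds the nuclear bodies that hold Sp100, at 11.8, 9.66 and 7.28 TPM. Phf11b, a PHD-finger protein, was at 12.6, 8.57 and 5.96 TPM. Helz2, a helicase that serves as a nuclear receptor coactivator, was the lowest at 4.95, 3.94 and 3.56 TPM. Phf11b differed most between libraries, 1.67 times between replicates 1 and 3 after rescaling, and Helz2 least, 1.09 times.

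Among the remaining genes Slfn2, a Schlafen family member known in the mouse to keep T cells and monocytes quiescent, was at 176, 125 and 102 TPM. Samhd1, which depletes the nucleotides that viruses need for DNA synthesis, was at 121, 95.6 and 82.5 TPM. The other Schlafen genes were at 72.5, 57.7 and 45.1 TPM for Slfn5 and at 20.8, 16.4 and 12.7 TPM for Slfn8. The 3 Schlafen genes lie in 1 cluster on chromosome 11, and Slfn2 was the highest of them in each library. Rtp4, a chaperone of cell-surface receptors, was at 68.8, 54.5 and 41.7 TPM. Xaf1, which binds the apoptosis inhibitor XIAP, was at 20.3, 17.1 and 11.3 TPM. Ifi35 was at 13.8, 10.5 and 8.01 TPM. Ifi44 had the largest spread of all members. It was at 11.2, 5.56 and 2.95 TPM, with counting intervals of 10.6 to 11.8, 5.32 to 5.80 and 2.71 to 3.21 TPM that did not overlap (exact Poisson, 95%), and its rescaled ratio of replicate 1 to replicate 3 was 2.97. Such intervals, here and below, cover counting error only.

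The order of the libraries was nearly the same across the members. By TPM 39 of 40 were highest in replicate 1, but so were 80.3% of all 9725 genes that averaged 1 TPM or more, called all genes from here on. Ifitm2 alone (1 of 40) was highest in replicate 2 and 0 members were in replicate 3, against 14.0% and 5.7% of genes. The order 1 above 2 above 3 held for 38 members by TPM, against 64.1% of genes. Rescaling removed the shift common to all genes, and on that scale 38 of 40 were highest in replicate 1, against 30.4% of genes. The exceptions, Trim25 and Ifitm2, were highest in replicate 2, where 30.9% of genes were highest, and 0 members were highest in replicate 3, where 38.7% of genes were. The rescaled order 1 above 2 above 3 held for 36 members, all but Mx1, Trim25, Ifitm2 and Helz2, against 16.6% of genes. Some steps of this order were near ties. Oasl2 had 266.2 and 265.7 rescaled TPM in replicates 1 and 2. In replicates 2 and 3, Dhx58 had 66.2 and 66.0 and Oas2 had 31.6 and 31.4. Replicate 1 exceeded replicate 3 with counting intervals apart for 37 members, all but Mx2, Oas2 and Trim25, against 15.1% of genes. Relative to the level, these intervals narrow as counts rise, and 36 members lay above the median level of detected genes. The 15.1% was not taken from genes of like level. With 1 condition and 3 libraries no test of this order over samples was possible, and the genes of a library are not independent replicates.

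**Figure D2:**
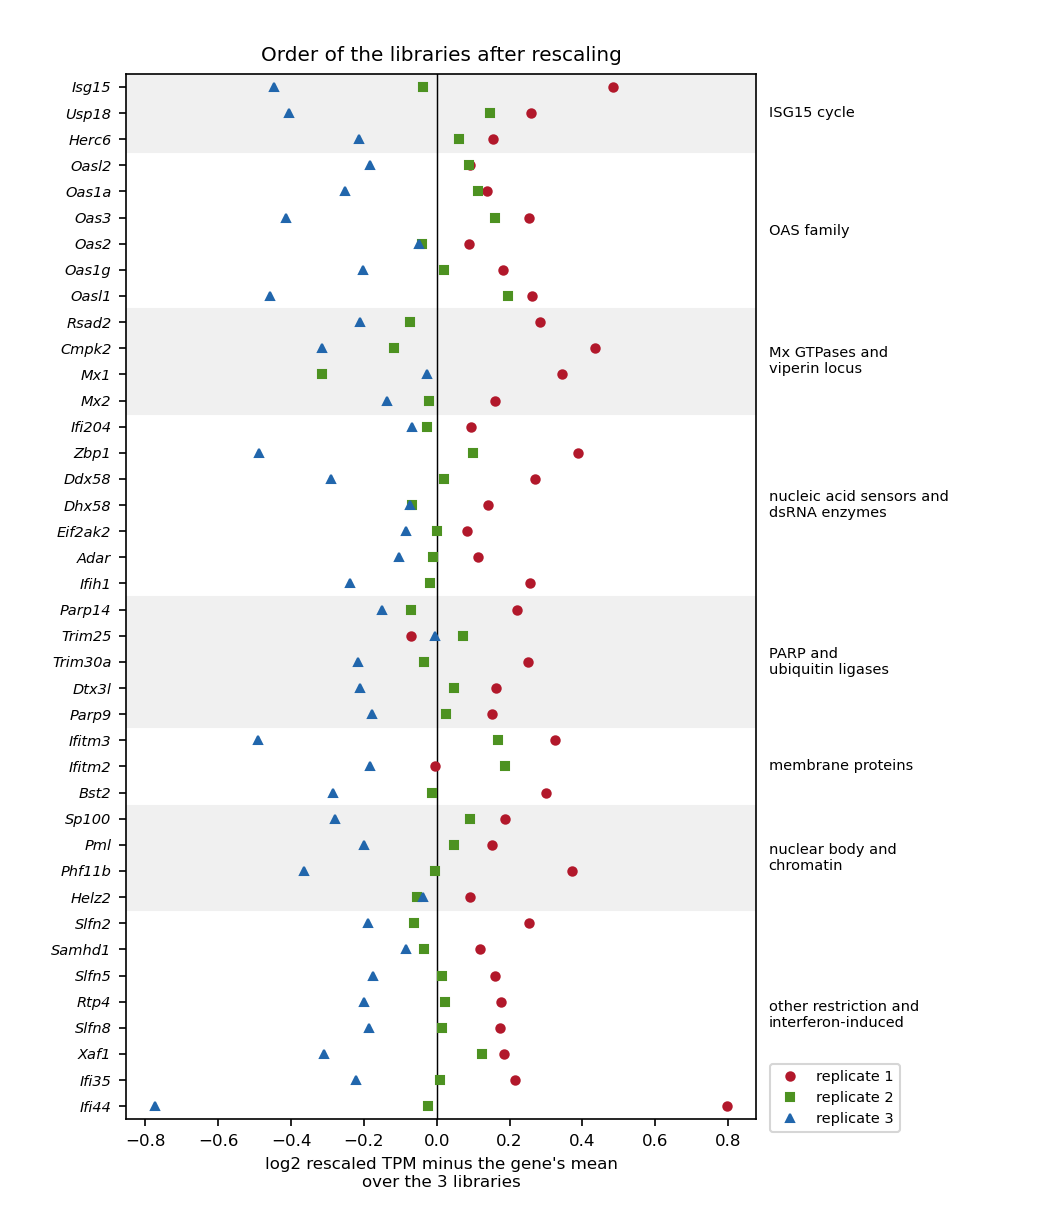
For each member, log2 rescaled TPM in replicates 1 (circles), 2 (squares) and 3 (triangles) minus the mean of the 3, grouped by role as in the plot of levels. Circles lie right of triangles for 39 of 40 members (Trim25 is the exception), and the distance is greatest for Ifi44.

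In size the rescaled differences were modest for most members. The median log2 difference of the members was 0.38 for replicate 1 minus replicate 3, a ratio of 1.30, and ranged between -0.07 for Trim25 and 1.57 for Ifi44. It was 0.15 for replicate 1 minus replicate 2 and 0.22 for replicate 2 minus replicate 3. The same medians over all genes were -0.02, -0.0045 and -0.01. Between replicates 2 and 3, replicate 2 was the higher for 38 of 40 members, all but Mx1 and Helz2, against 47.5% of genes. Replicate 2 was the deepest library and replicate 1 the shallowest, and the order 1 above 2 above 3 held for 1 of the 7 macrophage markers after rescaling (summed rescaled TPM 27759, 23568 and 24499). The early Lipid A genes had another order, with median log2 differences of 1.23 for replicate 1 minus replicate 2, 0.99 for replicate 1 minus replicate 3 and -0.27 for replicate 2 minus replicate 3. Malat1 and Neat1 were highest in replicate 3, where most members were lowest, with a median log2 difference of -1.59 for replicate 1 minus replicate 3. The part of stimulation, of depth, of cell content, of nuclear RNA in the cytosolic fraction, or of a difference between cultures in the members' order was not tested.

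**Figure D3:**
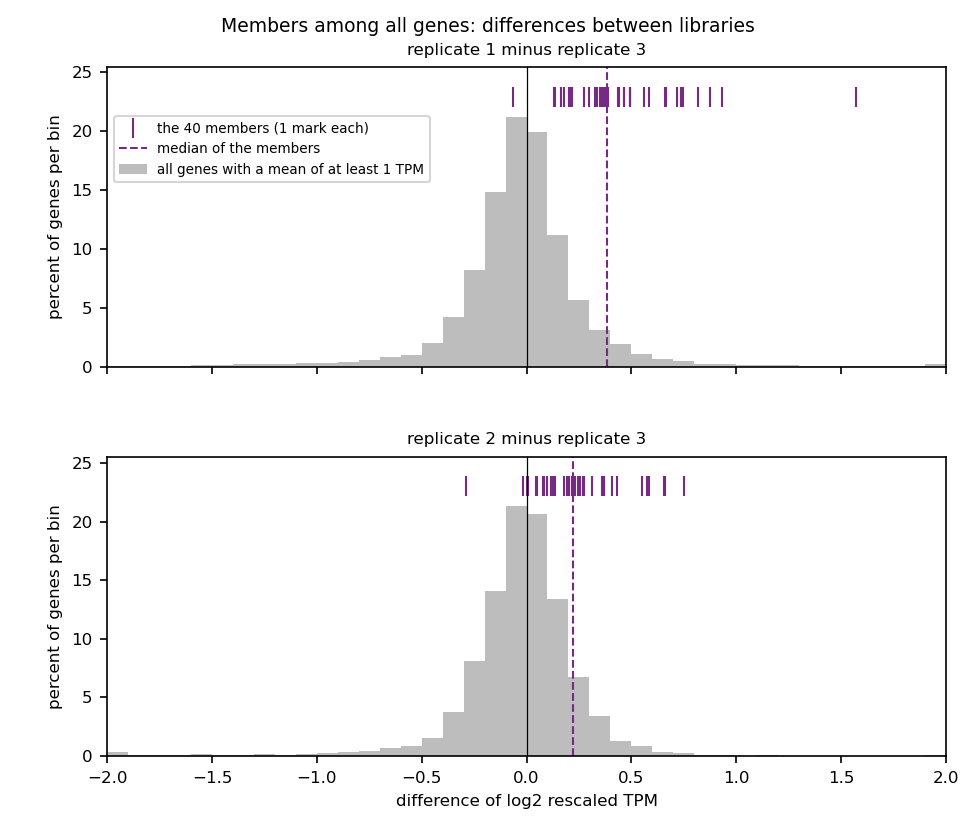
Distribution of the difference in log2 rescaled TPM over all genes averaging 1 TPM or more (grey bars, percent of genes per bin of 0.1, genes beyond 2 in either direction counted in the end bins), with 1 mark for each member and a dashed line at the members' median. The upper panel is replicate 1 minus replicate 3, with the members' median at 0.38, and the lower panel replicate 2 minus replicate 3, with it at 0.22.

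The spread over libraries was wider for the members than for genes at large on both scales. The SD of log2(TPM + 1) had a median of 0.36 over the members, between 0.15 and 0.81, against 0.16 over all genes, and 39 members lay above that median. Without replicate 3 the medians were 0.22 over the members and 0.12 over all genes. On rescaled values the median was 0.20, against 0.10, and 35 members lay above. The widest after Ifi44 (0.81) were Isg15 (0.62), Ifitm3 (0.60), Zbp1 (0.59) and Cmpk2 (0.52), and the narrowest were Trim25 (0.15), Helz2 (0.20), Mx2 (0.21), Oas2 (0.22) and Eif2ak2 (0.24), on the TPM scale. The added 1 narrows the spread of a gene as low as Mx2. Without it, log2 TPM of Mx2 differed by 0.64 between replicates 1 and 3, against 0.51 for Ifi204, which is outside these 5. The 5 widest came from 5 role groups, and so did the 5 narrowest. Members with an ISRE core in their window had a median log2 difference of 0.49 for replicate 1 minus replicate 3 (n = 15, from 0.17 to 0.93). Members whose window held none had 0.37 (n = 15, from -0.07 to 1.57), and the 10 members without a window had 0.35 (from 0.14 to 0.87). These ranges overlapped, and both Ifi44, the most variable member, and Trim25, the least variable, were without a core.

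Most members were read mainly from protein-coding transcripts. The 40 genes have 190 annotated transcripts, 6 members have only 1, and 25 members had at least 90% of their TPM in protein-coding transcripts in both transcript tables. Dhx58 and Ifih1 reached that share in the first table alone, and Oas2 and Oasl1 in the second alone. Mx1 was a clear exception: transcripts of the class subject to nonsense-mediated decay took 63.8%, 60.3% and 53.7% of its TPM in replicates 1, 2 and 3 in the first transcript table (59.3% ± 5.12, SD, n = 3), and protein-coding ones 28.6% ± 4.26. In the second table, made directly from the reads, the shares were 52.3% ± 5.09 and 26.5% ± 4.73. The same class took 59.7% ± 1.49 of Oasl2, all in transcript Oasl2-205, and 42.1% ± 5.10 of Xaf1, with 47.5% ± 1.21 and 41.7% ± 4.01 in the second table. For Oas1g the tables disagreed on the leading transcript: the decay-class transcript Oas1g-203 had 36.8% ± 8.17 in the first table and 59.0% ± 2.52 in the second, where the protein-coding Oas1g-201 had 58.6% ± 7.55 and 28.3% ± 4.77. Retained-intron transcripts took 35.7% ± 2.06 of Samhd1 in the first table and 31.4% ± 1.48 in the second. Non-coding processed transcripts took 30.5% ± 1.00 of Ddx58 in the first table, but 21.6% ± 3.45 in the second. Mx2 had 75.2% ± 6.95 in its pseudogene transcript Mx2-202 and 20.2% ± 8.48 in the retained-intron transcript Mx2-205 in the first table. In the second table Mx2-202 also led, with 67.2% ± 8.89, but the processed transcript Mx2-203 was next with 15.7% ± 9.68, ahead of Mx2-205 with 12.8% ± 2.97. These classes are the annotation's and the shares are estimates from short reads, so they show where reads were assigned and not which proteins were made.

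**Figure D4:**
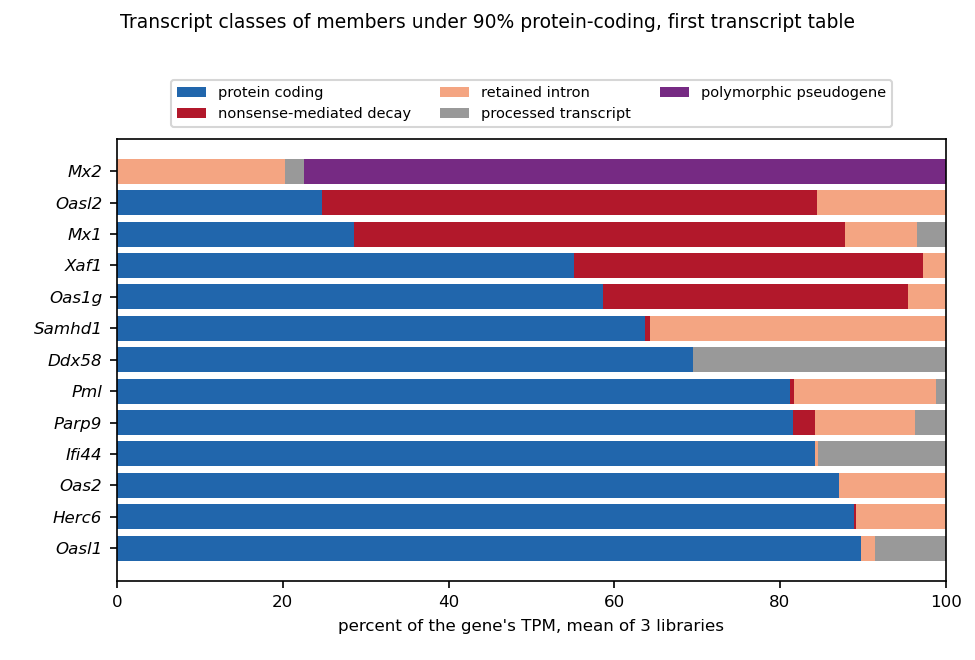
Share of each gene's TPM, in percent and as the mean of the 3 libraries, in the annotation's transcript classes, for the 13 members with under 90% in protein-coding transcripts in the first transcript table. Mx2, Oasl2 and Mx1 are the 3 with less than 50%, and Mx1 and Oasl2 are led by the nonsense-mediated decay class.

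The levels in both tables were close once rescaled. As TPM the second table gave 0.392 times the first for the median member, against 0.393 times for the median gene, so that 39 members, like the median gene, differed by over 2 times. After rescaling the ratio had a median of 0.985, was lowest at 0.930 for Oasl1 and highest at 1.34 for Mx1, and 0 members differed by over 2 times. The posterior SD of the count, the authors' measure of uncertain read assignment, was at most 1.56% of the count, for Oas1g.

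Other genes of the pathway were read for comparison. Of 21 interferon ligand genes 0 were detected, and 18 of them had no count in any library. Ifnb1, the ligand known to be made first after Lipid A, had 3, 1 and 3 counts in replicates 1, 2 and 3, at or below the limit that a count of 0 allows. All 10 genes of the receptors and the JAK-STAT chain were detected, with a median of 21.3 TPM. Among them Ifnar2 and Jak1 averaged 45.4 ± 4.71 and 31.6 ± 4.46 TPM (SD, n = 3), and Jak2 was the lowest at 6.18 ± 1.23 TPM. The 5 other interferon regulatory factors were all detected, at a median of 35.2 TPM. Irf7, itself known as an interferon-stimulated gene, was at 61.2, 50.6 and 30.2 TPM, the same order as most members, while Irf8 averaged 52.3 ± 6.45 TPM and Irf5 35.2 ± 4.42 TPM, and Irf3 was the lowest at 8.57 ± 0.611 TPM. Of the genes that act upstream of interferon production 6 were matched by symbol and all were detected, at a median of 8.34 TPM, led by Ikbke at 18.1 ± 3.997 TPM, Tbk1 at 14.6 ± 2.16 TPM and Mavs at 9.41 ± 1.47 TPM, with Tmem173 (STING) the lowest at 4.76 ± 1.27 TPM.

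The library order was also read in the signalling chain. The median rescaled log2 difference of replicate 1 minus replicate 3 was 0.38 for the members, 0.10 for receptors and JAK-STAT genes, 0.01 for the other regulatory factors and 0.15 for the upstream genes. The 5 regulatory factors ranged widely, between -0.25 for Irf3 and 1.32 for Irf1. Irf7 had 245, 230 and 154 rescaled TPM, while Irf8 was nearly level at 236, 236 and 234. The order 1 above 2 above 3 held for 36 of 40 members, 5 of 10 receptor and JAK-STAT genes, 3 of 5 regulatory factors and 3 of 6 upstream genes after rescaling, and these lists were not tested against each other. In the Ifit family, whose 6 genes are also interferon-stimulated, 4 were detected and 5 had a mean of at least 1 TPM. Those 5 had median log2 differences of 0.40, 0.93 and 0.49 for replicate 1 minus 2, 1 minus 3 and 2 minus 3, where the 40 members had 0.15, 0.38 and 0.22. Among the members Isg15, at 0.52, 0.93 and 0.41, came near the Ifit medians. Ifi44, at 0.82, 1.57 and 0.75, lay above those medians and above each of the 4 detected Ifit genes in all 3 differences. Only Ifit1bl1 was higher, at 1.16, 1.98 and 0.83. That gene was not among the 4 detected and was at 3.82, 1.51 and 0.76 TPM. The plasmacytoid dendritic cell markers, which would mark a cell type known for high interferon output, summed to 1.26, 0.96 and 1.03 TPM over 7 genes, each below 1 TPM in every library and Klk1 at 0.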

How the data were processed

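Cytosolic total RNA of bone-marrow-derived macrophages was measured in 3 libraries, grouped and numbered by the labels. Notes deposited beside the libraries say that the gene table and 1 transcript table (the first) were made from transcriptome alignments, and that the other transcript table (the second) came straight from the reads, both for mm10 and GENCODE M21. Column names are those of RSEM and kallisto; the sources used here do not give tools, versions or strandedness. Expected counts as deposited are estimated reads per gene, the deposited TPM are scaled to a fixed sum over all rows, and the deposited FPKM are fragments per kilobase at a common depth. The percent of a gene's TPM in each transcript is also in the authors' first transcript table and was recomputed here from TPM. The deposited posterior SD of each count was treated as a score. Replicates share a donor identifier, so SDs measure the spread between these libraries, part of which may be technical.

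Rows that name no gene held 0.420%, 0.123% and 0.142% of the counts in replicates 1, 2 and 3 and were left out. Members and lists were chosen with earlier results of these data known. Values in every library were to be given for the 2 highest and the lowest member of each role group, the 5 most and 5 least variable, any not detected and any differing by over 2 times between tables; this last clause reached 39 members by TPM, so all 40 are given. Pathway lists give the 3 highest and the lowest gene. The value of 1 gene that this rule would name is not reported here. Symbols of near-identical genes (Oas1a and Oas1g, Ifitm2 and Ifitm3, the Slfn genes) rest on how the estimate split reads. The symbol Mb21d1 was not matched. Apart from Parp9 and Dtx3l, genes overlapping a member on the opposite strand had at most 5.43% of its mean TPM.

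Rescaling used the summed TPM of 21938 nuclear-encoded protein-coding genes. Spread is the SD of log2(TPM + 1). Counting intervals are exact Poisson intervals on rounded expected counts. With 1 condition no comparison between groups and no p-value was possible. Alternatives were leaving out each library, other units, tables, detection limits and pseudocounts, TMM log2 CPM of rounded counts (edgeR 4.0.16, prior count 2, 12423 genes kept by filterByExpr at a minimum count of 10) and DESeq2 1.42.0 size factors. Scripts ran in Python 3.11.15 with numpy 2.4.6, pandas 2.3.3, scipy 1.17.1 and matplotlib 3.10.9 and in R 4.3.3, and were tested on simulated data. Of the 35 promoter windows of members, 33 ended in a transcript of their gene.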

Additional observations from a re-analysis of the deposited data

How the results depend on the processing

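All 40 members stayed detected under each limit and table tried except that 39 were at a limit of 2 TPM or in the second transcript table by TPM, and 36 at a limit of 5 TPM. The median level of 18.3 TPM moved with the unit: it was 81.6 rescaled, 7.53 in the second transcript table, 84.2 in that table rescaled, and 36.2 as FPKM. The median spread of 0.36 was 0.20 on rescaled TPM and 0.19 on the rescaled second table, and with 1 library left out it lay between 0.22 (without replicate 3) and 0.50 (without replicate 2). Replicate 1 was highest for at least 36 of the members in all tables and normalisations (37 of those averaging 5 TPM or more). Replicate 2 was highest for 2 members on rescaled TPM, FPKM, TMM log2 CPM and DESeq2 size factors, for 0 in the second table, where Ifitm2 too was highest in replicate 1, and for 3 in that table rescaled, where 1 was highest in replicate 3. With a library left out, members highest in replicate 2 numbered 1 to 39, the 39 being without replicate 1 and against replicate 3 alone, and members highest in replicate 3 numbered 0 to 1. In the second table rescaled, the order 1 above 2 above 3 failed for Mx1, Trim25, Ifitm2 and Helz2, as in the gene table. It failed there also for Oasl2, Oas2, Dhx58, Ifi204 and Mx2. No paired analysis was possible because the libraries form 1 group. Counting intervals of replicates 1 and 3 overlapped on the rescaled scale for Mx2, with the fewest counts (217, 487 and 183), and for Oas2, with 1509, 3939 and 1638 counts.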

Other observations

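Irf1 encodes a transcription factor known as an early response gene of both interferon and Toll-like receptors. It had 54.5 TPM in replicate 1, 20.0 in replicate 2 and 17.2 in replicate 3. Replicate 1 thus stood apart from the others, as it did for Tnf among the early Lipid A genes, at 165, 35.0 and 45.0 TPM. Irf7, at 61.2, 50.6 and 30.2 TPM, had replicate 3 apart instead, as did Ifitm3, at 368, 291 and 165 TPM, and Oas3, at 25.4, 20.98 and 12.6 TPM. Isg15, Cmpk2 and Mx1 had their larger step between replicates 1 and 2, with rescaled ratios of 1.44, 1.47 and 1.58, and Oasl1, Ifitm3 and Usp18 theirs between replicates 2 and 3, with 1.57, 1.58 and 1.46. These genes were chosen after their values were seen.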
